A study of Mus musculus with 24 samples.

Results

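The levels of 10 genes of the circadian clock were followed in retroperitoneal adipose tissue of 24 mice, 3 in each of 8 groups. They were chosen by name as core components of the clock: Arntl, Clock, Npas2, Per1, Per2, Per3, Cry1, Cry2, Nr1d1 and Dbp. The 10 genes are 10 of 56895 entries of the deposited tables, and all 10 passed the filter on low values in each comparison.

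The mice were male or female offspring labelled C57BL/6J (C57BL/6JRJ in the study's methods). Their mothers received AIN-93G diet with vitamin D3 at 1.0 IU/g (CTRL) or without it, at 0.0 IU/g (VDD). The VDD diet was given for at least 8 weeks before mating and through gestation. Every mother received the control diet after birth. From 6 weeks of age the offspring were fed a low-fat diet (LF, AIN-93M) or a high-fat diet (HF, 45% of energy from fat) for 8 weeks. The groups are thus CTRL LF, CTRL HF, VDD LF and VDD HF, in either sex. The mice were fasted overnight and kept in equal periods of light and dark. Neither the hour at which each mouse was sampled nor its litter is stated in the sources read, so a difference in hour cannot be told apart from a difference between groups or mice. In whole tissue, less RNA per cell and fewer cells of a type cannot be told apart either.

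The mammalian clock is a feedback loop of transcription. BMAL1, the protein of Arntl, pairs with CLOCK or with its relative NPAS2 and switches on genes that carry an E-box. Among those genes are Per1, Per2, Per3, Cry1 and Cry2, whose proteins return to the nucleus and inhibit the pair, and Nr1d1, whose protein REV-ERB alpha represses Arntl, Npas2 and Clock. Dbp encodes a transcription factor that acts on D-box elements and is a classical output of the loop. Levels of most of these RNAs rise and fall over the day in adipose tissue, Arntl and Npas2 in near antiphase to Dbp and Nr1d1. Per1 is also induced directly by glucocorticoid hormones.

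Promoter sequence was searched for letters that match the elements through which the loop acts. RefSeq windows on GRCm38, 250 bases before to 50 after a transcription start, were given for 9 of the 10 genes (13 windows). Per2 had no window. The stretches below show, for 6 genes, the motif in capitals with its surroundings, 5′ to 3′ on the strand of the gene, because these genes carry the arms of the loop compared here. Per1 (chr11:69098763-69098808, plus strand) and Cry1 (chr10:85185089-85185134, minus strand) hold the E-box CACGTG, Cry2 (chr2:92434210-92434255, minus strand) and Nr1d1 (chr11:98775380-98775425, minus strand) the E-prime box CACGTT read on the opposite strand, Per3 (chr4:151044843-151044890, minus strand) the D-box TTATGTAA, and Arntl (chr7:113207532-113207557, plus strand) the motif AGGTCA of ROR and REV-ERB receptors.
Per1: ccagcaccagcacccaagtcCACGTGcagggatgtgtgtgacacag
Cry1: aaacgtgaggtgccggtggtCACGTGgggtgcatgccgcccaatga
Cry2: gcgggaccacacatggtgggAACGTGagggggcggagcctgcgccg
Nr1d1: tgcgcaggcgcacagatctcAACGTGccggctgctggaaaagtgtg
Per3: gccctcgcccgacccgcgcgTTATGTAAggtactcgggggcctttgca
Arntl: ggcagaaagtAGGTCAgggacggagg

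The first base of the motif lies at -166 from the start in Per1, -60 in Cry1, -166 in Cry2, -28 in Nr1d1 and -205 in Per3. In Arntl it lies at 32, inside the first exon. In the GENCODE M21 annotation the Per1 stretch falls in an intron of a longer Per1 model, the Per3 stretch in an intron of Camta1, and those of Cry1, Cry2 and Nr1d1 between genes. Cry1 has an E-prime box as well, at -79, and Per3 another D-box at -158. AGGTCA was also found at -119 in Clock and at -137 in Per1, in each case on the opposite strand. With both strands searched, 7.15% of all 32851 windows hold the E-box, 4.68% the E-prime box, 1.06% either D-box (TTATGTAA or TTACGTAA) and 16.3% AGGTCA. The cyclic AMP response element TGACGTCA, found in 1.79% of windows, was in no window of the members. Of the 9 genes with a window, 7 held at least 1 of these motifs, and Npas2 and Dbp held none. The E-box was found in Per1 and Cry1 alone. These are matches of letters only.

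The libraries held 13346779 to 18484346 reads on genes, with a median of 15933506. Adipoq, which encodes adiponectin, lay between 44740 and 109715.5 normalised reads in every library, so the tissue carried the RNA of adipocytes. Other tissues were also present. The summed level of 10 skeletal muscle genes ran from 145.2 to 1241195.8, highest in VDD LF male 2310. Kidney genes stood out in VDD LF female 2303, with Umod at 1936.9 there against at most 4.5 elsewhere. The summed level of 5 adrenal genes, some of which serve steroid synthesis in the gonads as well, ran from 24.3 to 317.1 in males and from 71.6 to 32552.8 in females. It was highest in CTRL HF female 2292, VDD HF female 2121 (18871) and CTRL HF female 2290 (9878.1), while Cyp11b1, an enzyme of adrenal cortex, was at most 11.9 in any library. Ucp1, the uncoupling protein of brown and beige fat, reached 25478.8 in VDD HF female 2121. In 6 libraries, at most 1 of a group, the name of the column holds the word renal, which no other source explains. On the LF diet they are CTRL male 2287, VDD male 2302, CTRL female 2124 and VDD female 2312. On the HF diet they are CTRL male 2131 and VDD male 2307, with no HF female among them. The name thus goes partly with diet and sex. Calls of the 10 clock genes lost without these 6 libraries are given with the value that remained. For genes of the other lists no values without these libraries are given, so whether their calls remain is not shown. Libraries are called by their group and the number of the mouse.

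Levels were compared between genes per kilobase of annotated exon. Nr1d1 was the most abundant, with a median of 590.9 normalised reads per kilobase over the 24 libraries (range 324.4 to 908.5). Per1 followed at 208.7 (50.83 to 368.8), then Dbp at 115 (20.68 to 255.2), Cry2 at 114.5 (92.56 to 137.2) and Clock at 98.22 (69.85 to 149.3). The lower genes were Per3 at 68.84, Per2 at 63.1, Cry1 at 47.35, Arntl at 31.12 and Npas2 at 21.1. The ranges of each gene and its neighbour in this order overlapped for every pair. In the annotation, Dbp shares 539 exonic bases with Sphk2, Cry2 295 with D930015M05Rik, Nr1d1 263 with Thra and Arntl 33 with Gm45355, each on the opposite strand. The kit keeps the strand, but whether counting used it is not stated, so reads of these overlaps are uncertain. Sphk2 did not pass the test between the diets (log2 difference 0.06 ± 0.08, SE, adjusted p = 0.639), nor did Thra (0.09 ± 0.07, adjusted p = 0.328).

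The HF diet was the factor with the most calls among the clock genes. Averaged over the 4 strata of sex and mother, 12 HF against 12 LF mice, Per1, Npas2, Clock, Cry1 and Per2 fell and Dbp rose. The other 4 genes, Arntl, Per3, Cry2 and Nr1d1, did not pass the test. Thus 6 of 10 were called at an adjusted p under 0.05, where 29.2% of all 18399 genes tested were called. Of all genes, 14.2% were lower and 15% higher on the HF diet, while of the clock genes 5 were lower and 1 higher. The median log2 difference of the 10 genes was -0.16, against 0.01 over all genes. Values on this scale are differences of log2(normalised reads + 1), which understate the change of low genes.

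**Figure D1:**
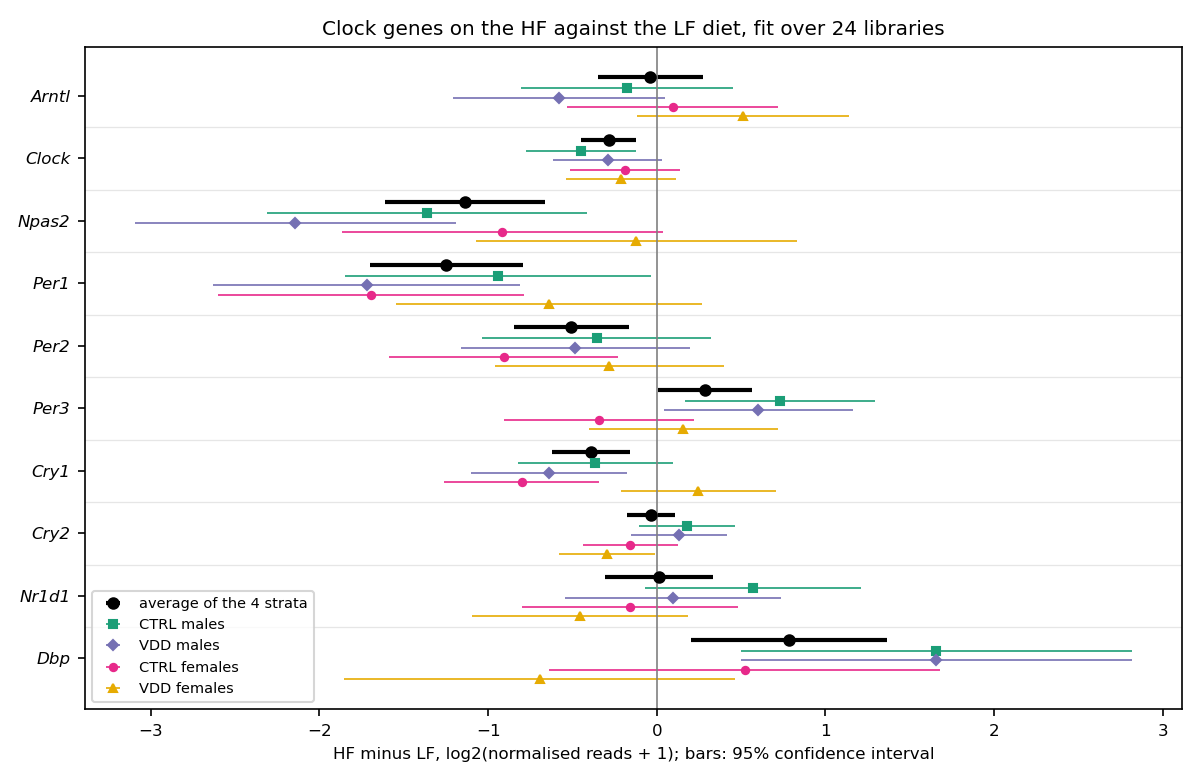
HF minus LF difference of each clock gene in log2(normalised reads + 1), with 95% confidence intervals, as the average of the 4 strata (black) and in CTRL males, VDD males, CTRL females and VDD females. Per1 lies to the left of 0 in each of the 4 strata, whereas Dbp lies to the right in 3 strata and to the left in VDD females.

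Per1, a component of the inhibitory arm, changed most. In CTRL males its normalised reads were 1476.5, 1434.2 and 1379.1 on the LF diet and 629.5, 608.6 and 1073.9 on the HF diet. In VDD males they were 2076.8, 2019.7 and 1797.2 against 570.5, 570.3 and 644.6. In both groups of males the mice on the 2 diets did not overlap. The share of all genes without overlap was not counted, so separation of the diets is a description only, for Per1 and the genes below. CTRL females had 998.2, 1495.9 and 1558.9 on the LF diet and 437.1, 288.4 and 541 on the HF diet, again without overlap. VDD females had 1219, 1222.1 and 1623.8 on the LF diet and 1130.9, 1980.6 and 286.2 on the HF diet. This last group held both the highest and the lowest Per1 of the 12 HF mice. The average log2 difference was -1.25 ± 0.22 (SE, 95% CI -1.70 to -0.79, adjusted p = 0.000382, n = 12 and 12), or 0.421-fold.

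Npas2, the partner of BMAL1 that can stand in for CLOCK, fell by 1.14 on the log2 scale (SE 0.23, 95% CI -1.61 to -0.66, adjusted p = 0.00117). CTRL LF males had 233, 84.8 and 130 normalised reads and CTRL HF males 53.8, 66.1 and 41.1. VDD LF males had 324.1, 362.5 and 105.3, and VDD HF males 78.6, 51.8 and 33.7. Each HF male thus lay below each LF male of its mother's group. CTRL females had 239.7, 165.1 and 213.2 on the LF diet and 101.9, 121.7 and 100.3 on the HF diet. VDD females had 43.8, 112.6 and 135.7 on the LF diet and 68.1, 86.3 and 88.5 on the HF diet, which overlapped. The low LF value, 43.8, is that of mouse 2303, the library with kidney genes.

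Dbp, the output gene, went the other way, with an average log2 difference of 0.79 ± 0.28 (SE, 95% CI 0.21 to 1.37, adjusted p = 0.0392). CTRL males had 61.9, 340.5 and 208.2 normalised reads on the LF diet and 581.3, 316.1 and 763.9 on the HF diet. VDD males had 71.7, 109.9 and 406 on the LF diet and 299.3, 550.8 and 622.1 on the HF diet. In males 3 LF libraries were low, CTRL LF male 2287 and VDD LF males 2078 and 2302, and the diets overlapped. In CTRL females the 3 HF values, 396, 347.8 and 396, all lay above the LF values of 213.3, 330.2 and 260.8. VDD females had 712.9, 423.4 and 499.7 on the LF diet and 332.9, 246.1 and 432.3 on the HF diet, which overlapped. The Dbp call rested on the full set of libraries. Without the 6 libraries named renal the difference was 0.41 (adjusted p = 0.37). It was lost on leaving out any of 16 single libraries, with adjusted p between 0.00415 and 0.0758 over the 24 fits, and was kept only without CTRL LF male 2293 or 2296, CTRL HF male 2128, VDD LF male 2310, VDD HF male 2298, CTRL LF female 2125, VDD LF female 2303 or VDD HF female 2083.

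Clock, Cry1 and Per2 moved by smaller amounts. Clock, the constitutive partner of BMAL1, ranged from 1249.1 to 2049.4 in LF mice (median 1469.9) and from 958.8 to 1534.3 in HF mice (median 1203.9), a log2 difference of -0.28 ± 0.08 (adjusted p = 0.00988). Cry1, a cryptochrome that inhibits CLOCK-BMAL1, ranged from 120.5 to 230.8 (median 193.5) and from 96.8 to 205.9 (median 136.7), with -0.39 ± 0.11 (adjusted p = 0.0121). Per2 ranged from 279.5 to 640 (median 404.3) and from 146.6 to 577.5 (median 299.5), with -0.51 ± 0.16 (adjusted p = 0.0244). For each of these 3 genes the ranges of the diets overlapped while the medians stood apart.

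The other 4 genes did not pass the test. Arntl ranged from 107.7 to 392.8 in LF mice and from 133.3 to 302.1 in HF mice, with a log2 difference of -0.04 (95% CI -0.35 to 0.28). Per3, the third Period gene, had 0.29 (95% CI 0.01 to 0.57, adjusted p = 0.118), with a median of 613.6 on the LF and 734.7 on the HF diet. Its adjusted p ran from 0.0465 to 0.208 over the fits with 1 library left out, and passed without CTRL HF male 2127. Cry2 had -0.03 (95% CI -0.18 to 0.11), the narrowest interval of the 10. Nr1d1 ranged from 1035.4 to 2471.1 and from 998.2 to 2795.6, with 0.01 (95% CI -0.31 to 0.33).

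**Figure D2:**
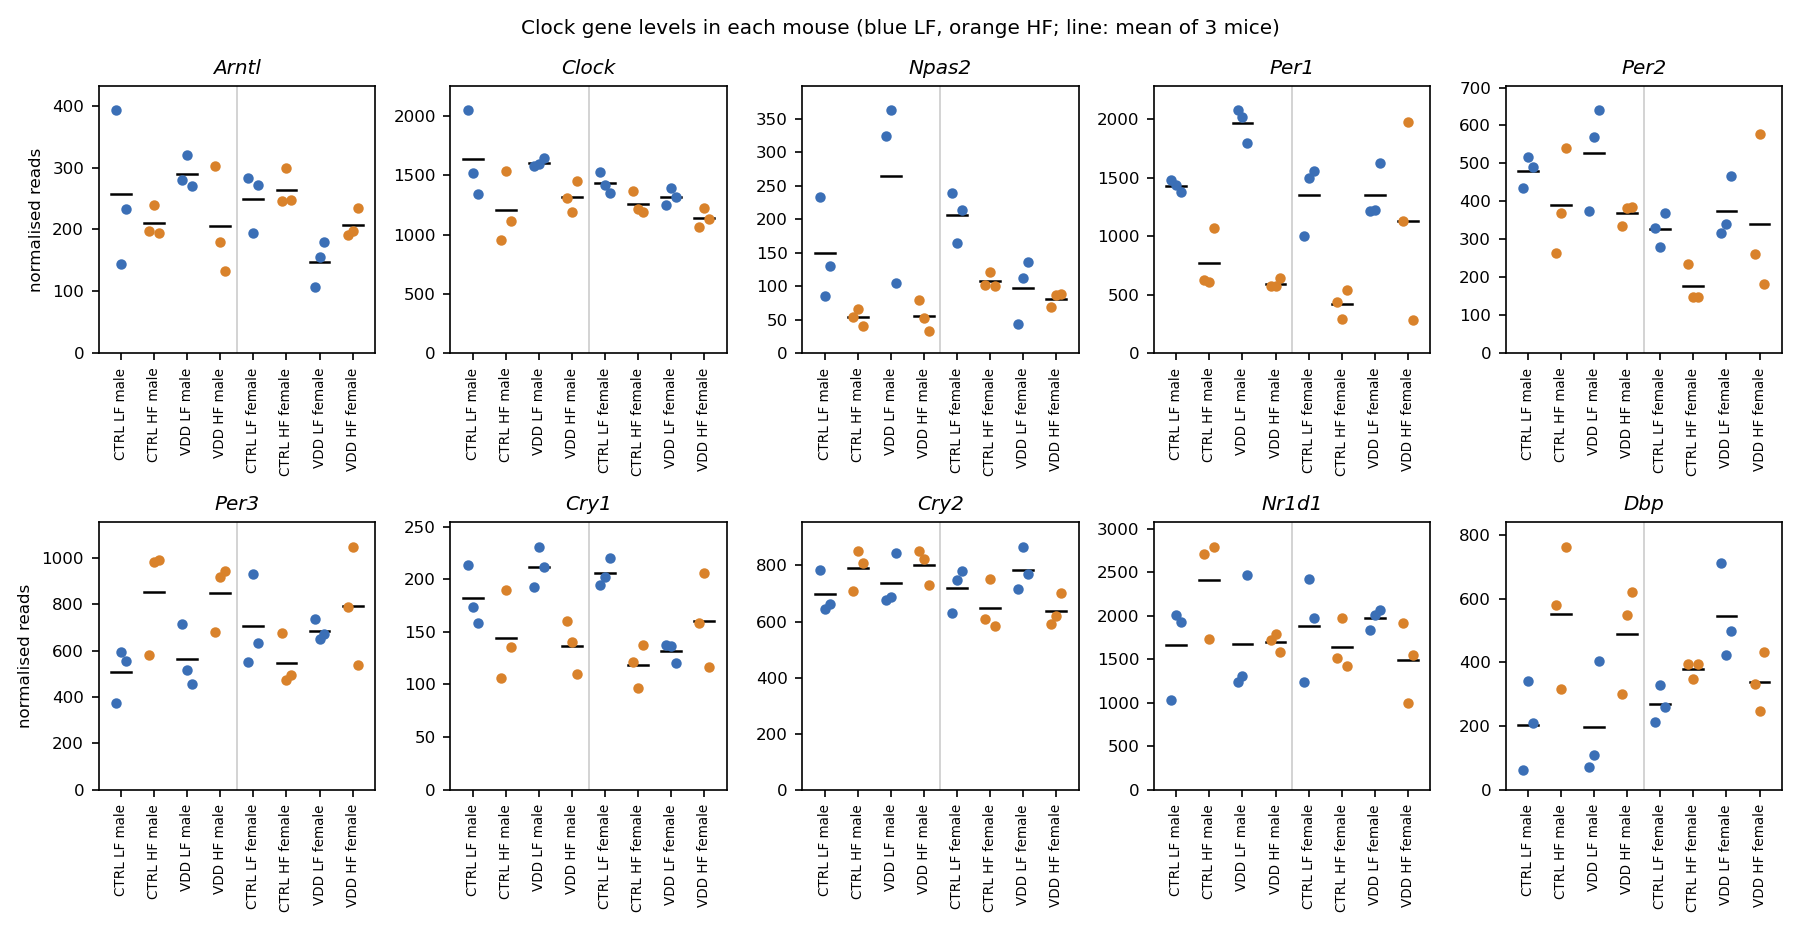
Normalised reads of the 10 clock genes (vertical axis, from 0) in each of the 24 mice by group, LF in blue and HF in orange, with the mean of 3 mice as a line. Per1 shows LF and HF mice apart in CTRL males, VDD males and CTRL females, and a spread from 286.2 to 1980.6 in VDD HF females.

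The call of each gene depended on the libraries in different degree. Without the 6 libraries named renal, 18 libraries remained and 2 genes were called: Per1 (log2 difference -1.31, adjusted p = 0.00892) and Npas2 (-0.81, adjusted p = 0.0415). Clock then had -0.21 (adjusted p = 0.133), Cry1 -0.37 (adjusted p = 0.1) and Per2 -0.54 (adjusted p = 0.0852). Over the 24 fits that left out 1 library, adjusted p ranged from 2.51e-05 to 0.00102 for Per1 and from 0.000127 to 0.00293 for Npas2. Scaled by total reads, the median of all genes was 0.18 in place of 0.01, and 80.3% in place of 51.3% of all calls were higher on the HF diet. Under that scaling 4 clock genes were called, Per1 and Npas2 lower and Per3 and Dbp higher. Of all genes, 1145 were then called lower and 4664 higher. Relative to the median, Per1 then had -1.26, Npas2 -1.15, Per2 -0.52, Cry1 -0.40, Clock -0.30 and Dbp 0.77, and Arntl and Cry2, whose signs turned, had -0.05 and -0.05.

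The study compared groups in pairs, at an adjusted p under 0.01 with a fold above 1.5 or below 0.66. Those thresholds were set here on p-values of limma, whereas the study took them from DESeq2, so the counts are not the study's. With limma, 1 clock gene was called in 1 of the 8 comparisons. Per1 was lower in VDD HF than in VDD LF males, with a log2 difference of -1.72 ± 0.12 (SE, adjusted p = 0.00742, n = 3 and 3) and means of 595 ± 42.9 and 1965 ± 148 (SD). In that comparison 0.0752% of 15965 genes were called. In the fit over all 24 libraries the same thresholds called Npas2 (-2.14, adjusted p = 0.00458) and not Per1 (-1.72, adjusted p = 0.0138), and in limma-voom it called 0. Leaving out any of the 6 libraries but VDD LF male 2310 lost the call of Per1. In CTRL LF vs. CTRL HF males 0.0578% of genes and no clock gene were called, and in the other 6 comparisons 0% of genes.

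At an adjusted p under 0.05 with no fold limit, CTRL LF vs. CTRL HF females gave 4 of 10 clock genes, all lower on the HF diet, where 7.4% of genes were called. These were Per1 (log2 difference -1.72 ± 0.26, adjusted p = 0.0211), Npas2 (-0.94 ± 0.19, adjusted p = 0.0346), Cry1 (-0.82 ± 0.17, adjusted p = 0.0362) and Per2 (-0.93 ± 0.21, adjusted p = 0.0424). VDD males gave Per1 alone (5.35% of genes called), and CTRL males gave none (1.17%). In VDD LF vs. VDD HF females no gene of any kind was called. At an unadjusted p under 0.05, 4 clock genes passed in CTRL males (18.8% of genes), 6 in VDD males (25.9%), 5 in CTRL females (28.8%) and 1 in VDD females (5.05%). The 1 in VDD females was Dbp, with -0.69 ± 0.27 (adjusted p = 0.837 in limma), whereas its difference was 1.65 ± 0.55 in CTRL males, 1.66 ± 0.65 in VDD males and 0.50 ± 0.17 in CTRL females.

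The diet of the mother moved no clock gene past the test. In the average of VDD minus CTRL over the 4 strata, limma called 0 of 10 at an adjusted p under 0.05, 0 of 10 at an unadjusted p under 0.05, and limma-voom 0 of 10, where limma called 4.59% of all genes. Arntl had a log2 difference of -0.23 (95% CI -0.55 to 0.08) and Per1 of 0.31 (SE 0.22). The median of the 10 was 0.02, against -0.01 over all genes. Without VDD HF female 2121, whose Per1 of 286.2 was the lowest of the 24 mice and whose Ucp1 and adrenal levels stood apart, Per1 was higher in VDD mice by 0.51 (adjusted p = 0.03). Over the 24 fits with 1 library left out its adjusted p ran from 0.03 to 0.646. Without any other single library 0 genes were called.

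The comparisons in pairs showed where differences by mother lay, none of them past an adjusted p of 0.05. At an unadjusted p under 0.05, 4 of 10 clock genes passed in CTRL LF vs. VDD LF females, where 12% of all genes did. Dbp was at 545 ± 150 in VDD LF females against 268 ± 58.8 in CTRL LF females (log2 difference 1.01 ± 0.24, adjusted p = 0.391). Arntl was at 148 ± 37 against 249.8 ± 47.9, Npas2 at 97.4 ± 47.8 against 206 ± 37.8 and Cry1 at 131 ± 9.5 against 206 ± 13.2 (SD, n = 3). For each of these 4 genes the mice of the CTRL LF and VDD LF females did not overlap. The genes were picked by p on these same mice, so their separation adds no support. The share of all genes without overlap was not counted. Mouse 2303, the library with kidney genes, had the most extreme Dbp, Arntl and Npas2 of the VDD LF females, 712.9, 107.7 and 43.8. The other 2 VDD LF females had 423.4 and 499.7 for Dbp, 156 and 180.4 for Arntl and 112.6 and 135.7 for Npas2, which did not overlap with the CTRL LF females either. LF males gave 1 gene, Per1 (6.79% of genes), and HF males 1, Nr1d1 (5.31%). HF females gave 0 clock genes, where 16.7% of all genes passed. These comparisons share their groups with the comparisons of the diets.

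Between the sexes 1 of 10 clock genes was called, where 19.8% of all genes were. Per2 was lower in females, with a log2 difference of -0.61 ± 0.16 (adjusted p = 0.0125). It ranged from 263.2 to 640 in males (median 410.2) and from 146.6 to 577.5 in females (median 297.6), and the ranges overlapped. The call was lost without the 6 libraries named renal (-0.58, adjusted p = 0.105) and with the level of the kidney genes as a covariate (-0.55, adjusted p = 0.0675). Of the 3 kidney genes that could be tested, 2 were themselves higher in females, Cdh16 by 5.49 and Aqp2 by 1.62 on the log2 scale. Lrp2 did not pass (adjusted p = 0.306), and Umod was at most 4.5 outside VDD LF female 2303. The kidney level thus went partly with sex, and their parts in Per2 cannot be told apart. Also higher in females were the 3 adrenal genes that could be tested. Hsd3b1 differed by 6.93, Cyp11a1 by 4.37 and Star by 2.18 on the log2 scale (adjusted p = 0.000514, 0.00494 and 0.00251). Dio2, 1 brown adipocyte gene, and Krt19, 1 mesothelium gene, were higher in females as well. All 6 macrophage genes were lower in females. The part of the adrenal, brown adipocyte, mesothelium and macrophage levels in Per2 was not tested.

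Whether the effect of the HF diet differed with sex or mother was tested directly. No clock gene passed an adjusted p of 0.05 in limma or in limma-voom for the diet by sex, where limma called 0.0435% of genes, nor for the diet by mother in males or in females or the mother by sex, where it called 0%. At an unadjusted p under 0.05, 5 of 10 clock genes passed for the diet by sex, where 8.92% of all genes did. Dbp had the largest of these differences, -1.74 ± 0.56 (female minus male, adjusted p = 0.355). It was followed by Npas2 with 1.23 ± 0.46 (adjusted p = 0.439), Per3 with -0.76 ± 0.27 (adjusted p = 0.419), Arntl with 0.68 ± 0.30 (adjusted p = 0.515) and Cry2 with -0.38 ± 0.14 (adjusted p = 0.423). For the mother by sex 2 passed unadjusted, Arntl with -0.64 ± 0.30 and Npas2 with -1.17 ± 0.46 (6.63% of genes). For the diet by mother 1 passed in females, Cry1 with 1.05 ± 0.31 (adjusted p = 0.654, 6.36% of genes), and 0 in males (4.1%).

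Mice of the same group differed among themselves in a patterned way. The deviation of each mouse from the mean of its group of 3 was correlated between genes over the 24 mice, for 45 pairs, with two-sided permutation tests within groups. In all, 5 pairs passed an adjusted p of 0.05 by Pearson's r, and 3 of them also by Spearman's rho. Arntl and Npas2, of the activating arm, deviated together, with r = 0.79 and rho = 0.89 (permutation p = 1e-05 for each, the smallest that 100000 resamples can give, adjusted p = 0.00045). Npas2 and Dbp deviated in opposite directions, with r = -0.85 and rho = -0.88 (permutation p = 0.00031 and 0.00023, adjusted p = 0.00697 and 0.00517). So did Arntl and Dbp, with r = -0.68 and rho = -0.74 (permutation p = 0.00181 and 0.00073, adjusted p = 0.0271 and 0.0109).

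Nr1d1 and Dbp deviated together, with r = 0.76 and rho = 0.65 (permutation p = 0.0044 and 0.00807, adjusted p = 0.0427 and 0.0908). Arntl and Per3 deviated in opposite directions, with r = -0.55 and rho = -0.53 (permutation p = 0.00474 and 0.0185, adjusted p = 0.0427 and 0.119). The pair of Per1 and Per2, with r = 0.69 and rho = 0.49 (permutation p = 0.0755 and 0.0852, adjusted p = 0.283 and 0.319), did not pass. Per1 was thus not among the genes of the 5 pairs, although it had the largest difference between the diets.

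**Figure D3:**
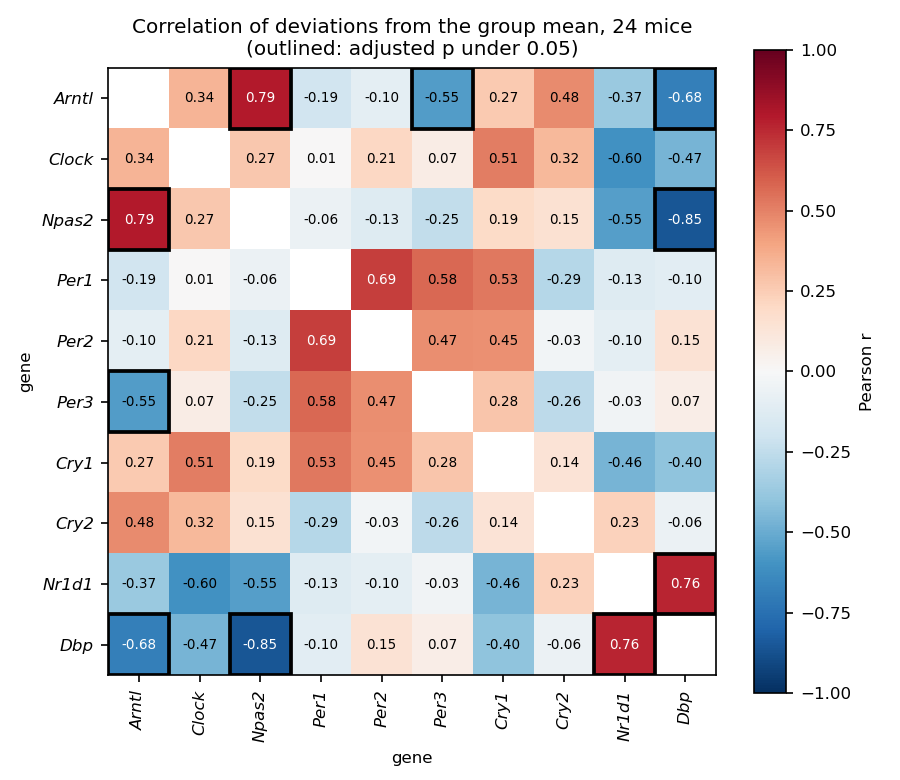
Pearson r (colour and number) of the log2 deviations of 24 mice from their group means for each pair of the 10 clock genes, on both axes, with pairs at an adjusted p under 0.05 outlined. Arntl and Npas2 (0.79) and Nr1d1 and Dbp (0.76) are positive, and Dbp is negative with Npas2 (-0.85) and Arntl (-0.68).

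The relations were recomputed without the 2 mice farthest from the median of the first gene. Npas2 and Dbp then had r = -0.84, Arntl and Npas2 0.74, Nr1d1 and Dbp 0.70, Arntl and Dbp -0.44 and Arntl and Per3 -0.37. For Npas2 and Dbp r was -0.94 in the 12 males and -0.64 in the 12 females, for Arntl and Npas2 0.76 and 0.90, and for Nr1d1 and Dbp 0.92 and 0.48. No pair passed an adjusted p of 0.05 within 1 sex. Without VDD LF female 2303, 3 pairs passed, and without the 6 libraries named renal 1 pair passed, Arntl and Npas2 (r = 0.73), while Npas2 and Dbp had r = -0.88. Without the group means removed, 14 of 45 pairs passed. With 1 library left out, the pair of Arntl and Dbp lost its call in 9 of 24 fits, Nr1d1 and Dbp in 16 and Arntl and Per3 in 17. Genes that share libraries also share their scaling, whose part was not tested.

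**Figure D4:**
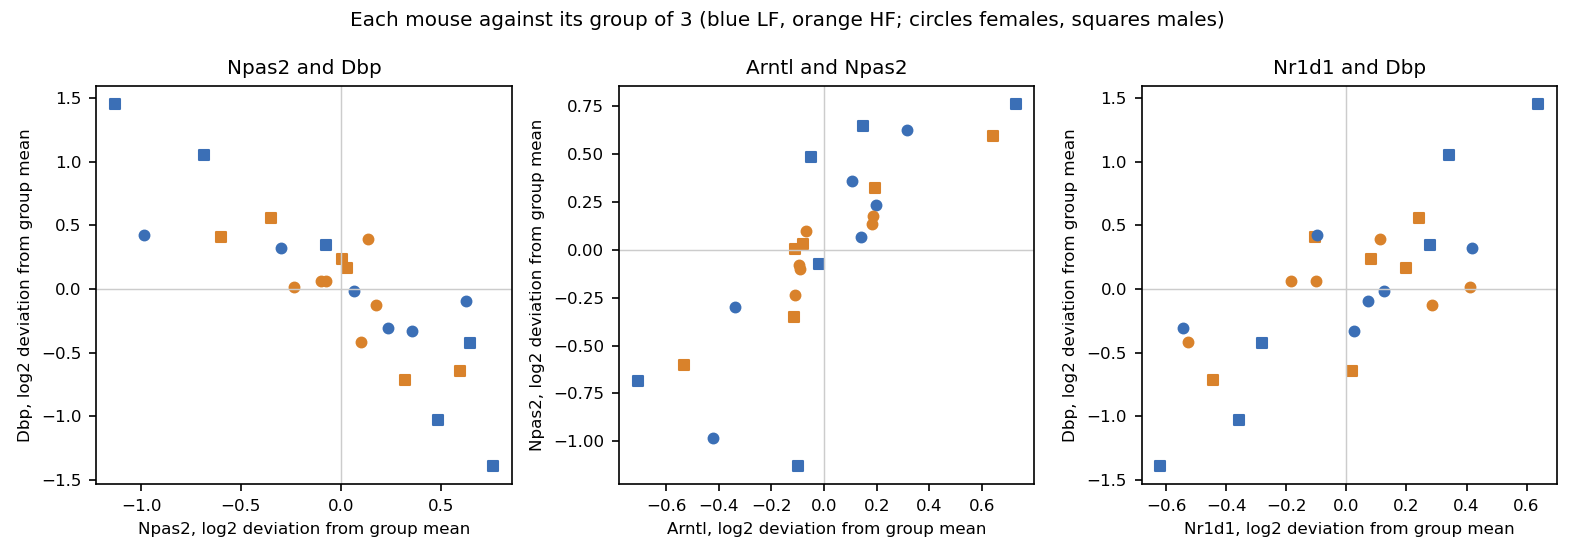
Log2 deviation of each of 24 mice from its group mean for Npas2 and Dbp, Arntl and Npas2, and Nr1d1 and Dbp, LF in blue and HF in orange, males as squares and females as circles. The first pair slopes down (r = -0.85) and the other 2 slope up (r = 0.79 and 0.76).

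The mice behind these relations can be named. CTRL LF male 2287 had the highest Arntl of the 24 mice, 392.8, with the lowest Dbp, 61.9, an Npas2 of 233 and an Nr1d1 of 1035.4. Its group mate 2293 had an Arntl of 144.7, a Dbp of 340.5, an Npas2 of 84.8 and an Nr1d1 of 2014.2. Among VDD LF males, 2310 had a Dbp of 406 and an Npas2 of 105.3, and 2302 a Dbp of 109.9 and an Npas2 of 362.5. The summed level of skeletal muscle genes was 1241195.8 in 2310, 56516.3 in 2302 and 77910 in 2287, against 350.5 in 2293. The columns of 2287 and 2302 also hold the word renal. The part of muscle in these relations was not tested. The library with kidney genes, VDD LF female 2303, had the lowest Arntl of the 24 mice, 107.7, and a Dbp of 712.9.

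The spread within groups differed between the genes. The pooled SD of log2 values within groups was 0.74 for Dbp, larger than for 81% of the 18399 genes tested. It was 0.60 for Npas2 (71.4%) and 0.58 for Per1 (70.1%), then 0.43 for Per2 (55.9%), 0.40 for Nr1d1 (53.2%), 0.39 for Arntl (51.3%) and 0.35 for Per3 (46.2%). Cry1 had 0.27 (31.3%), Clock 0.19 (12.4%) and Cry2 0.15 (5.89%). A difference of a given size was therefore easier to detect in Clock or Cry2 than in Dbp.

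Other genes of the clock were taken as a list of 20, all of which were tested. On the HF diet 6 fell, 1 rose and the others did not pass the test, where 14.2% of all genes were lower and 15% higher. The median log2 difference of the 20 was -0.12, against 0.01 over all genes. Rora, a receptor that activates Arntl through AGGTCA, fell by 0.95 on the log2 scale (SE 0.18, adjusted p = 0.000824). Nampt, which makes an NAD precursor under control of the clock, fell by 0.86 (adjusted p = 9.16e-05). Hlf, a relative of Dbp, had -0.62, and Nfil3, a repressor at D-boxes, had -0.57 (adjusted p = 0.0221 and 0.0101). Cipc, an inhibitor of CLOCK, had -0.50 and Usp2, a deubiquitinase, -0.71 (adjusted p = 0.00175 and 0.0442). Timeless rose by 0.78 (adjusted p = 0.000593). Tef, another relative of Dbp, had -0.22 (adjusted p = 0.244) and Nr1d2, the paralogue of Nr1d1, -0.30 (adjusted p = 0.215).

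**Figure D5:**
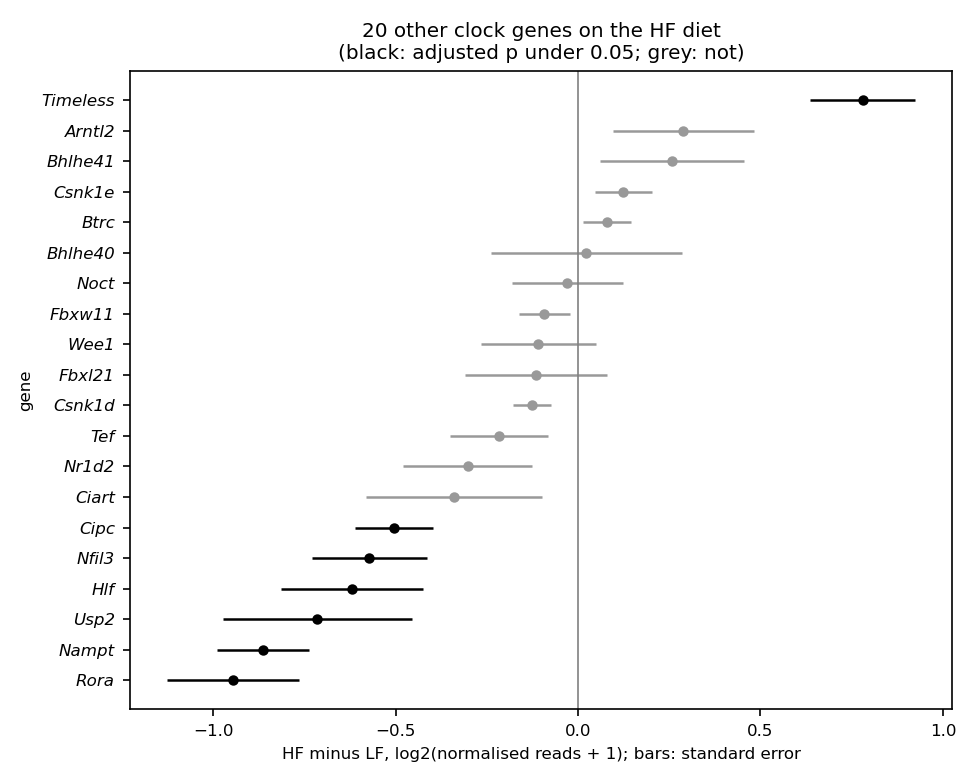
HF minus LF difference in log2(normalised reads + 1) of 20 other clock genes, averaged over the 4 strata, with standard errors, black where the adjusted p was under 0.05. Rora is farthest to the left at -0.95, and Timeless is the 1 black point to the right of 0, at 0.78.

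In the average of VDD minus CTRL, 4 of the 20 rose and 0 fell, where 4.59% of all genes were called in either direction. These were Nampt by 0.76 (adjusted p = 0.00714), Nfil3 by 0.70 (adjusted p = 0.0202), Usp2 by 1.04 (adjusted p = 0.0319) and Cipc by 0.46 (adjusted p = 0.0241). Each of these 4 fell on the HF diet. Of the brown adipocyte genes Cox7a1 (2.36, adjusted p = 0.00466) and Ppara (1.03, adjusted p = 0.0468) were also higher in VDD mice. So were, of the fasting genes, Pdk4 (0.99, adjusted p = 0.0446) and Cpt1b (1.72, adjusted p = 0.0176). The 10 skeletal muscle genes had a median of 2.82, with 0 called. Their summed level was highest in VDD LF male 2310 (1241195.8), VDD HF males 2307 (403056) and 2298 (252664.3) and VDD LF female 2303 (183465.9). It was at most 77910 in CTRL mice, and 248.5 in VDD LF male 2078. The part of the brown adipocyte, fasting and muscle levels in Nampt, Nfil3, Usp2 and Cipc was not tested. Between the sexes Hlf was higher in females, by 0.72 (adjusted p = 0.0134), and Noct, a deadenylase with a daily rhythm, was lower, at 0.499-fold (adjusted p = 0.000144). As a description of the deviations within groups, r with Dbp was 0.73 for Hlf, 0.71 for Nr1d2, 0.66 for Tef, -0.80 for Arntl2 and -0.75 for Noct over the 24 mice. With Arntl it was -0.59 for Hlf, -0.58 for Nr1d2 and 0.57 for Noct.

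Genes that respond to other signals were taken as 3 further lists. In a list of 8 glucocorticoid-responsive genes, which holds Per1 itself, 6 fell on the HF diet and 0 rose, with a median of -0.80. Of all genes, 14.2% were lower and 15% higher. Fkbp5, a chaperone partner of the glucocorticoid receptor, fell by 1.75 (SE 0.30, adjusted p = 0.000308), Sgk1 by 1.08, Zbtb16 by 0.81, Klf9 by 0.79 and Tsc22d3 by 0.75. Dusp1 had -0.10 (adjusted p = 0.827) and Mt2 -0.52 (adjusted p = 0.288). In the 3 VDD HF females the sum of the 7 genes other than Per1 was 6960, 13894 and 4638 normalised reads where Per1 was 1130.9, 1980.6 and 286.2. In VDD LF males it was 10810, 18229 and 24123 where Per1 was 2076.8, 2019.7 and 1797.2. The order of the 3 mice by this sum was the same as by Per1 in 4 of 8 groups, reversed in 2 (VDD LF and VDD HF males) and neither in the other 2. Mouse 2083, with the highest sum and Per1 of the VDD HF females, also had the highest summed level of fasting genes on the HF diet, 38499.

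Of 5 genes induced by fasting, 3 fell on the HF diet, where 14.2% of all genes were lower and 15% higher. These were Pdk4 (-1.45, adjusted p = 0.000703), Fgf21 (-1.28, adjusted p = 0.00724) and Ucp3 (-0.40, adjusted p = 0.0344). The other 2 did not pass. Angptl4 went the other way, at 0.31 (adjusted p = 0.0755), and Cpt1b had -0.55 (adjusted p = 0.292). Of 7 immediate early genes, which rise with handling and stress, limma called 0 at an adjusted p under 0.05. At an unadjusted p under 0.05, 2 passed in opposite directions, Ier2 (-0.22) and Atf3 (0.88). The share of all genes that passed unadjusted in this contrast is not given here. Among markers of cells, 5 of 6 macrophage genes rose on the HF diet, their summed level running from 1950.7 to 8145.7 in LF and from 2492.2 to 12331.8 in HF mice. Lep, which encodes leptin, rose by 2.50 (adjusted p = 1.33e-05), and of the other 7 white adipocyte genes 2 fell. Of the brown adipocyte genes 2 of 6 fell, and no gene of the muscle, kidney, lymphocyte, adrenal or mesothelium lists passed. The part of these changes in the values of the clock genes was not tested, except that the 6 calls on the HF diet were also made with the skeletal muscle level as a covariate.

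The genes most like Dbp and Arntl in their deviations were taken from the 18389 other genes tested, as a description over 24 mice. For Dbp they were 2010001K21Rik (r = 0.93), Ngb, which encodes neuroglobin (0.89), Spink2 (0.86), Hdac11, a histone deacetylase (0.85), and Cyp2s1, a cytochrome P450 (0.84). At the other end were Ankrd50 (-0.86), XLOC_036182 (-0.85) and Gm9905 (-0.84). For Arntl the highest were Zfp536 (0.82), Sema4c (0.81), XLOC_032670 (0.81), Mmp15, a membrane metalloproteinase (0.79), and Cfap100 (0.78), and the lowest Gm36738 (-0.79), Actr6 (-0.76) and Zfp119b (-0.75). Several of them were low, with a mean of 17.6 normalised reads for 2010001K21Rik, 18.2 for Ngb and 8.62 for Spink2. No other clock gene of the list was among these 8 for Dbp or the 8 for Arntl.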

How the data were processed

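Polyadenylated RNA of 24 libraries was sequenced by the authors in pairs of reads from a stranded kit. Reads were trimmed with Sickle, aligned with STAR 2.7.0d to mm10, assembled with Cufflinks 2.2.1 to add transcripts to GENCODE, and counted with featureCounts 1.6.1, per the methods and the submitters' processing notes. For each of the 8 comparisons the authors deposited log2 values, log2(normalized reads + 1), scaled by DESeq2, for 56899 entries, of which 4 with repeated names were left out. Their columns of fold changes and p-values were not used.

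Whole reads were recovered from the deposited log2 values (100% within 0.02 of a whole number, and 0 difference between the 2 tables of a library). Each table was tested with limma 3.58.1 (trend) in R 4.3.3 after a filter of 10 normalized reads in 3 libraries. The 24 libraries were then scaled together by the median of ratios and fitted as 8 group means, with a pseudocount of 1. P-values were adjusted by Benjamini-Hochberg over all genes tested. Correlations were permuted within groups (100000 resamples) and adjusted over 45 pairs. The fits were checked on simulated data. The limma tests set a difference between groups against the spread between mice within groups. Litters are not stated, so it is not known whether these mice are independent.

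The 10 genes and the lists were chosen with earlier results of these data known. The 10 genes are named throughout. Of the 20 other clock genes those called are named, and for Arntl and Dbp the 5 genes of highest and 3 of lowest r. Tef, Nr1d2 and the genes of other lists whose values are given were singled out after their values were seen. Library names give the number of the mouse from its column. Exons were taken from GENCODE M21 and promoters from RefSeq, both GRCm38. Some genes of the original list of other clock genes are not reported here.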

Additional observations from a re-analysis of the deposited data

How the results depend on the processing

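Of 1469 values recomputed under the alternatives, 1296 were scored as unchanged. For a difference or an r this meant the same direction and the same side of the threshold. Values of r without the 2 farthest mice were scored on direction alone. A count could change slightly and still be scored as unchanged, such as 5 to 6 clock genes on the HF diet with 1 library left out. By the study's thresholds the limma count for VDD LF vs. VDD HF males was 0 in place of 1 with limma-voom (Per1 at an adjusted p of 0.0115), and it lay between 0 and 1 when 1 library was left out, falling to 0 for each library but VDD LF male 2310. At an adjusted p under 0.05 with no fold limit, CTRL females gave 4 clock genes. For the HF diet the count was 2 without the libraries named renal and 2 at an adjusted p under 0.01 with the fold limit. For the sexes the count was 0 under each of these settings and 0 with the kidney level as a covariate. The shares of all genes called under these settings are not given here. For the mother, leaving out 1 library gave 0 to 1, the 1 being Per1 without VDD HF female 2121. Of 45 pairs, 0 passed in males, 0 in females, 14 without centring, 3 without VDD LF female 2303 and 1 without the libraries named renal, and 2 to 5 with 1 library left out. The cause was not tested.

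Signs turned only for values that did not pass the test. On the HF diet Arntl was 0.13 and Cry2 0.13 scaled by total reads, Arntl 0.16 and Nr1d1 -0.20 without the libraries named renal, and Arntl 0.01 and Nr1d1 -0.030 with that name as a covariate. For the mother Cry2 was -0.073 scaled by total reads and Clock 0.038 without the libraries named renal. For the sexes Per3 was -0.022 with the muscle level, -0.012 with the renal name and -0.0041 with the kidney level as a covariate, and Arntl 0.0062 with the latter. With 1 library left out, on the HF diet Arntl lay between -0.12 and 0.054 and Nr1d1 between -0.064 and 0.093. For the mother Clock lay between -0.065 and 0.021, Cry1 between -0.065 and 0.039 and Dbp between -0.056 and 0.26. For the sexes Nr1d1 lay between -0.15 and 0.0085 and Per3 between -0.057 and 0.071. Scaled by total reads, the median of all genes was -0.13 for the mother, and 23.5% in place of 55.2% of calls were higher in VDD mice, and 67.3% in place of 54.5% in females.

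The covariates of renal name and kidney level, and the correlations without VDD LF female 2303 or without the libraries named renal, were chosen after seeing the data. No paired analysis was possible because the columns carry the number of the mouse and not the replicate number of the labels. The sources read do not state that equal replicate numbers match mice across groups, so no pairing of mice is known to exist. With 3 mice in a group, small differences within single comparisons were not detectable.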
